A study of Homo sapiens with 6 samples.

Results

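The interstitial matrix is the material that mesenchymal cells lay down around themselves, and 42 genes that build, fill or remodel it were followed in human embryonic stem cells of the H1 line at day 2 of hematopoietic differentiation. The genes were taken by symbol from the first column of both deposited tables. All 42 were found once in each table, out of 37803 symbols found once in both. They comprised 12 collagens, 14 glycoproteins and proteoglycans, 5 genes of hyaluronan synthesis and binding, and 11 proteases, protease inhibitors and crosslinking enzymes. The cells had been treated for 2 days with activin A and BMP4, given by the labels as 40 and 50 ng/ml, while the study's methods give these doses the other way round. The 3 groups were wild-type cells (WT), cells labelled with a SNAI1 deletion whose titles carry a leading 1 (SNAI1_KO_1), and cells with the same labelled deletion and a leading 2 (SNAI1_KO_2), with 2 libraries each. All groups received the same medium, and nothing in the labels ties the leading numbers to the pair of frameshift lines that the study describes. No label says whether libraries of a group came from separate cultures, so that p-values measure only the spread between these libraries.

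Fibrillar collagens are triple helices of alpha chains that assemble into fibres, and collagens V and XI regulate the width of fibres formed by collagens I and II. Fibronectin, fibrillins and fibulins form networks to which other matrix proteins attach, whereas tenascins, thrombospondins and SPARC modify how cells adhere. Hyaluronan is a long sugar chain spun out through the plasma membrane by hyaluronan synthases, and link protein fastens versican to it to give the hydrated matrix through which mesenchymal cells move, including those of the gastrulating embryo. Matrix metalloproteinases cut these components and TIMPs inhibit the metalloproteinases. SNAI1 is a zinc-finger repressor of epithelial genes that is switched on as epithelial cells become mesenchymal.

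Values were FPKM, the number of sequenced fragments scaled to the length of the transcript and to all mapped fragments of the library. Each table held 1 library of every group and was normalized separately, and therefore each knockout library was set against the WT library of its own table. Depth relative to that WT library was estimated at 0.876 to 1.11. SNAI1 mRNA was 37.1 and 36.4 FPKM in WT and between 47.8 and 68.6 in the 4 knockout libraries, so that the transcript was not lost and does not check the labels. Of 8 mesoderm markers, 5 were called lower and 1 higher. Their sum was 1560 to 1624 FPKM in WT and 1069 to 1149 in the knockout libraries. The marker called higher was T, at 17.78 and 38.65 FPKM in WT and 129.6 to 251.3 in the knockout libraries. All 6 epithelial markers were called higher, with a sum of 403 to 453 FPKM in WT and 1282 to 1450 in the knockout libraries. The 8 pluripotency markers summed to 1336 to 1347 in WT and 1537 to 1700 in the knockout libraries, with 3 called higher and 1 lower. The 5 definitive endoderm markers summed to 3128 to 3505 in WT and 1427 to 2039 in the knockout libraries. Of them 3 were called lower and 1 higher. Most of this sum was CER1, at 3262 and 2550 FPKM in WT and 976.9 to 1797 in the knockout libraries. SOX17 was the marker called higher, at 63.93 and 251 FPKM in WT and 119.9 to 337.7 in the knockout libraries. Of the 8 markers of fibroblasts or stroma, THY1 and S100A4 were called higher, LUM lower, PRRX1 and TCF21 stayed under 1 FPKM in every library, and DCN was listed at 0 in 5 of 6; their sum was 91.7 to 106.9 in WT and 161.5 to 246 in the knockout libraries. The 6 endothelial markers summed to between 3.78 and 4.93 FPKM and the 6 blood markers to between 4.64 and 7.25 in any library, with PTPRC listed at 0 throughout. Of 7 amnion or trophoblast markers 2 were called higher and 1 lower, with sums of 28.6 to 44.2 in WT and 28.99 to 50.6 in the knockout libraries, and the 4 neural ectoderm markers summed to 81.3 to 95.9 and 50.4 to 74.2, with none called. The epithelial, pluripotency, endoderm, mesoderm, fibroblast or stroma, and neural ectoderm sums did not overlap between WT and the knockout libraries. Most of the fibroblast or stroma sum was THY1 in every library, and most of the neural ectoderm sum was OTX2. Over all genes tested, 15.8% were called higher and 15.4% lower, while the share of genes without such overlap was not counted. The part of these marker differences in the matrix differences given below was not tested. In bulk RNA, fewer cells that make a transcript and less transcript per cell cannot be told apart.

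In WT cells the matrix genes ranged from highly abundant transcripts to ones that were barely detected. SPARC, a collagen-binding glycoprotein, was the highest in both WT libraries at 990 and 1303 FPKM. It was followed in the first table by FBLN1 (230), COL5A2 (209), COL6A1 (204) and COL5A1 (182), and in the second by COL6A1 (411), FBLN1 (238), COL5A1 (219) and MMP14 (186). The genes behind SPARC changed places between the WT libraries, hence their order is not settled by these data. By mean WT level, 11 genes were at 100 FPKM or more, another 11 at 10 to under 100, 13 at 1 to under 10, and 7 under 1. The last were COL3A1, COL6A3, COL12A1, DCN, THBS2, HAS1 and HAS3. COL5A1, COL5A2, COL6A1 and COL6A2 were thus the highest of the listed collagen transcripts. COL3A1 of type III, an abundant collagen of adult connective tissue, was at 0.0479 and 0.292 FPKM. The 42 genes together summed to 3152 FPKM in WT of the first table and 3731 in WT of the second. In the same order they summed to 2326 and 2719 in SNAI1_KO_1 and to 2254 and 2760 in SNAI1_KO_2. SPARC made up 28.0% to 34.9% of this sum in any library.

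**Figure D1:**
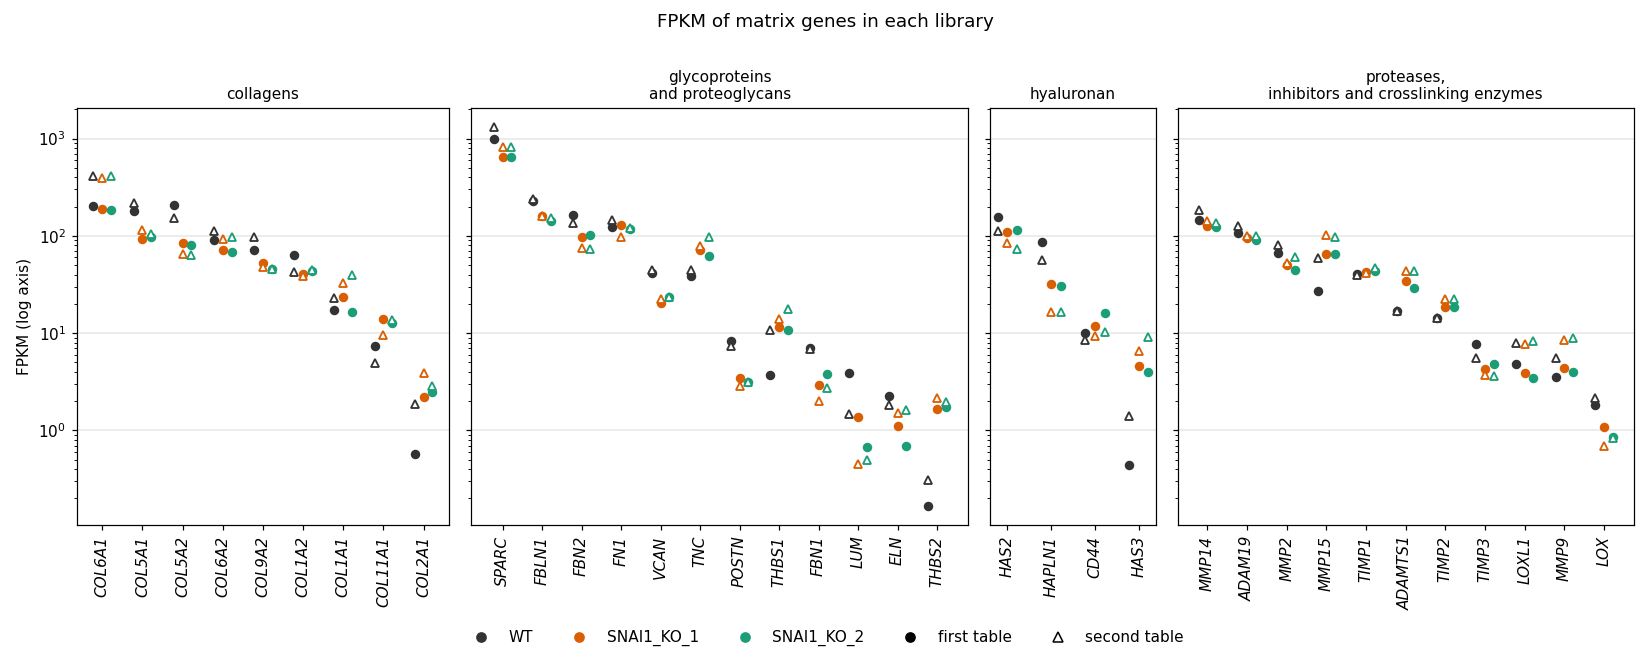
FPKM (log axis) of the 36 matrix genes that were tested, 1 point per library, by class; colour gives the group, filled circles the first table and open triangles the second. SPARC stands highest, and COL5A1, COL5A2, HAPLN1 and VCAN lie lower in every knockout library than in either WT library, while HAS3, THBS2 and ADAMTS1 lie higher.

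To ask how these genes differ when SNAI1 is deleted, both knockout groups together were compared with WT on log2(FPKM + 1), a scale on which differences of low genes are understated. Genes were tested where their mean was at least 1 FPKM, which 36 of the 42 reached, and a gene was called at an adjusted p under 0.05 (limma, table as a block, Benjamini-Hochberg over 13909 genes). Of the 36, 18 were called lower (50.0%) and 9 higher (25.0%), where over all genes tested 15.4% were called lower and 15.8% higher. The genes were listed with earlier results of these data known. Such shares, here and for the classes and further lists below, are therefore descriptions and not a test of the lists. Because the filter is on the mean of all libraries, HAS3 and THBS2 were tested only through their level in the knockout libraries, and LUM and LOX only through that in WT, while BGN failed it. Among genes with a mean of at least 1 FPKM both in WT and in the knockout libraries, a restriction chosen after seeing the data, 16 of 32 matrix genes were called lower and 7 higher, against 15.7% and 14.1% of 13031 genes. The median log2 difference was -0.31 over these 36 and -0.05 over all genes tested. In all 4 knockout libraries 20 genes (55.6%) lay below the WT library of their table and 12 (33.3%) above it, against 35.1% and 26.2% of all genes. For SNAI1_KO_1 alone, 17 were called lower and 8 higher, against 10.9% and 13.0% of all genes. In SNAI1_KO_2 alone, 18 were called lower and 9 higher, against 12.0% and 13.5%. These contrasts share the WT libraries. THBS1 and LOX were called in SNAI1_KO_2 but had an adjusted p of 0.0600 and 0.0553 by limma in SNAI1_KO_1, a difference between groups that was not itself called.

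The table block decides many of these calls. In the fit without the replicate block 10 genes were called, 7 lower and 3 higher, against 7.66% of all genes in either direction: COL5A1, COL5A2, COL9A2, VCAN, POSTN, FBN1 and FBLN1 were lower, and THBS2, HAS3 and ADAMTS1 higher. The other 17 had adjusted p of 0.0715 to 0.542 by limma there. THBS2 and HAS3 passed the filter only through the knockout libraries, a limit that their calls here and below carry. Apart from them, ADAMTS1 was higher without the block, and MMP15 and ADAMTS1 on leaving out each library. Without the filter on low values 14 genes were called, against 7.07% of 30248 genes. For the fits below that left out a library, the share of all genes called in every fit was not counted. When each library was left out in turn, 14 of the 27 genes were called in every fit, 10 lower (COL5A1, COL5A2, COL9A2, VCAN, SPARC, POSTN, FBN1, FBN2, FBLN1 and HAPLN1) and 4 higher (THBS2, HAS3, MMP15 and ADAMTS1). When the WT library of the second table was left out, the number called was 16, the lowest of these fits, against 13.1% of all genes.

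**Figure D2:**
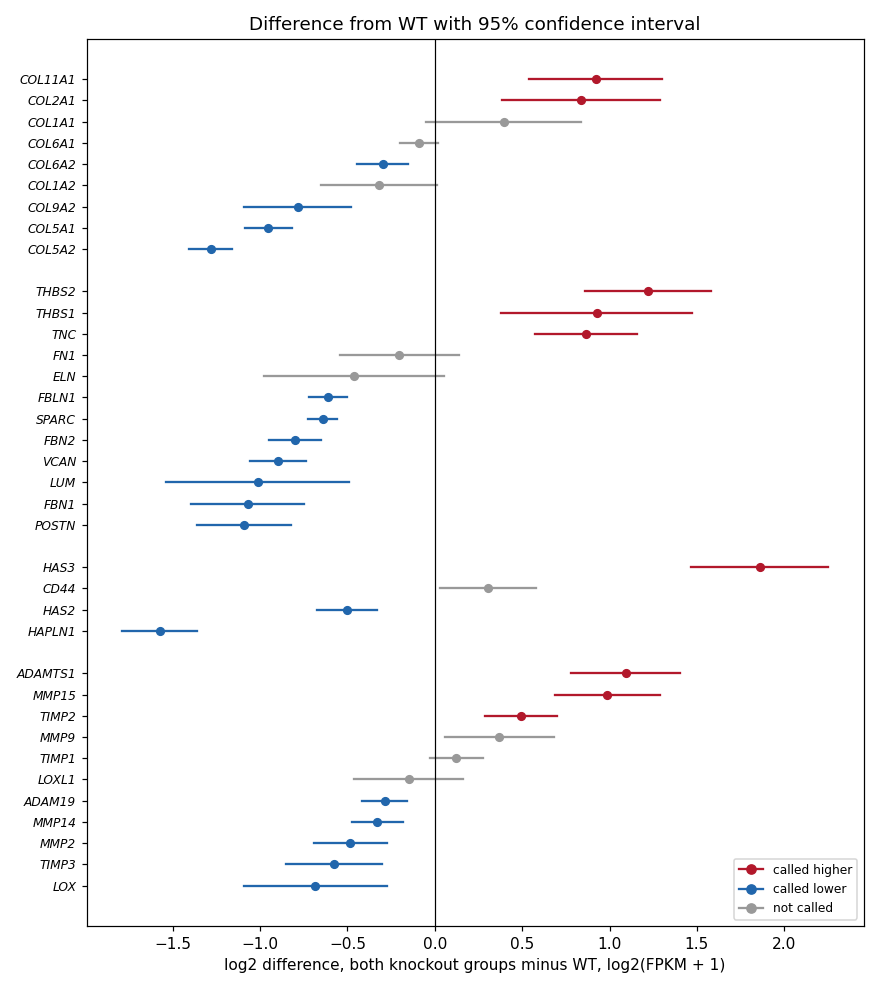
Log2 difference on the log2(FPKM + 1) scale, both knockout groups minus WT, for the 36 genes tested; points are fitted differences, bars 95% confidence intervals, and colour marks genes called higher, called lower or not called. On this scale HAPLN1 at -1.57 and COL5A2 at -1.28 are the lowest and HAS3 at 1.86 the highest, and each class holds genes on both sides of 0.

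The knockout groups were also compared with each other. None of the 36 genes was called (0 of 36, against 0% of all 13909 genes by limma), and 1, FBLN1, had an unadjusted p under 0.05, as did 521 of all genes. For these 36 genes the median standard error of that comparison was 0.13 on the log2 scale, so that small differences between the knockout groups were not detectable.

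**Figure D3:**
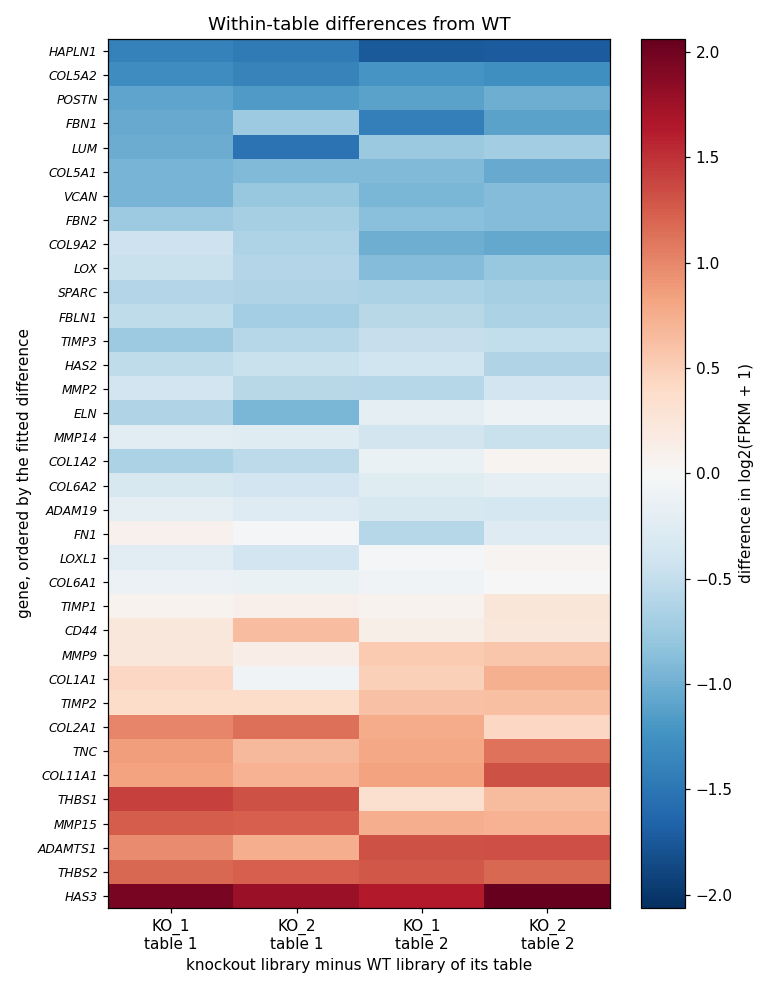
Difference in log2(FPKM + 1) of each knockout library from the WT library of its table (columns) for the 36 genes tested, ordered by the fitted difference (rows); blue is lower and red higher than WT. HAPLN1, COL5A2 and POSTN are blue and HAS3, THBS2 and ADAMTS1 red in all 4 columns, while FN1, COL1A1, COL1A2 and LOXL1 differ in sign between columns.

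SNAI1 binds the E-box letters CAGGTG, which read CACCTG on the other strand, and therefore the promoters of the listed genes were searched for these letters on both strands. RefSeq windows of 300 bases (250 before and 50 from the gene start, build GRCh38.p14) were at hand for 28 of the 42 genes. A match was found in 4 of the 28 genes (14.3%), compared with 24.1% of the 27305 genes in the table. The genes were COL9A2, ADAM19, MMP15 and LOX, the last having several windows. Windows of the first 3 are shown because they hold the only matches among genes with 1 window, COL9A2 and ADAM19 being called lower and MMP15 higher. They lie at chr1:40317237-40317536 on the minus strand (COL9A2), chr5:157575726-157576025 on the minus strand (ADAM19) and chr16:58025504-58025803 on the plus strand (MMP15). The match starts 70 bases before the gene start in COL9A2 and 184 before it in ADAM19, and the 2 matches of MMP15 start 134 and 110 bases before it. Sequences run 5′ to 3′ along the gene, with the matching letters in capitals.
COL9A2: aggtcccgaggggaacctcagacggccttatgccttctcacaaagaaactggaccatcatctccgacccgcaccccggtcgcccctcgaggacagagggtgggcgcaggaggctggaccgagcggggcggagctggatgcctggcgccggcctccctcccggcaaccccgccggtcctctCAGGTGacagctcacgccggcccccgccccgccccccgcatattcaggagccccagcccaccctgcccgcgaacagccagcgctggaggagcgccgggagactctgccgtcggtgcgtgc
ADAM19: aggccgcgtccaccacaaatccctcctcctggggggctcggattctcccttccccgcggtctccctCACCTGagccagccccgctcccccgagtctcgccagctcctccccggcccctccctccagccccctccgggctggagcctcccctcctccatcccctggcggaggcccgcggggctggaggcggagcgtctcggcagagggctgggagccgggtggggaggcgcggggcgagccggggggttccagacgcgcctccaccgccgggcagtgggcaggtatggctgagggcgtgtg
MMP15: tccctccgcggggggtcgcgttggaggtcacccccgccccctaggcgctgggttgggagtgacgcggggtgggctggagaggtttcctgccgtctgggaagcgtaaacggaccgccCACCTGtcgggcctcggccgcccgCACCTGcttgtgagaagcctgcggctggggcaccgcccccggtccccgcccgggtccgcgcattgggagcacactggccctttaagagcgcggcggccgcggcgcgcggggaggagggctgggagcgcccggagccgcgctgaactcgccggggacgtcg
A match describes these letters only, and binding was not measured here.

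Among the 12 collagens, both listed chains of collagen V and a chain of collagen IX were lower in the knockout libraries. Chains of collagens II and XI were higher, and the collagen I chains did not pass. Of 9 tested, 4 were called lower, 2 higher and 3 neither way (over all genes 15.4% were lower and 15.8% higher), with a median log2 difference of -0.30. COL5A2, the alpha 2 chain of collagen V, was 209 FPKM in WT of the first table and 153 in WT of the second, 85.4 and 65.5 in SNAI1_KO_1, and 79.9 and 63.1 in SNAI1_KO_2. No knockout value reached either WT value. Its log2 difference was -1.28 ± 0.048 (SE) with an adjusted p of 0.000183, and its level fell to 0.395 and 0.420 of WT in the first and second table. COL5A1, its partner chain, was 182 and 219 FPKM in WT, 93.4 and 115 in SNAI1_KO_1, and 96.3 and 106 in SNAI1_KO_2. Again the groups did not overlap (log2 difference -0.95 ± 0.053 SE, adjusted p = 0.000394). The ratio of COL5A1 to COL5A2 was 0.869 and 1.43 in WT, and in the knockout libraries it was 1.09 and 1.21 (first table) and 1.76 and 1.67 (second table).

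COL9A2, a chain of the fibril-associated collagen IX whose promoter is shown above, was 71.3 and 96.9 FPKM in WT, 52.6 and 47.7 in SNAI1_KO_1, and 45.5 and 46.1 in SNAI1_KO_2. All knockout libraries lay below both WT libraries, and the log2 difference was -0.78 ± 0.12 with an adjusted p of 0.00809. COL11A1, a chain of the fibril-regulating collagen XI, was 7.40 and 4.88 FPKM in WT, 13.9 and 9.46 in SNAI1_KO_1, and 12.8 and 13.6 in SNAI1_KO_2. It lay above WT in all 4 knockout libraries, by 0.92 ± 0.15 on the log2 scale with an adjusted p of 0.00952. COL2A1, the cartilage and notochord collagen, was low throughout. It was 0.575 and 1.88 FPKM in WT, 2.18 and 3.88 in SNAI1_KO_1, and 2.46 and 2.89 in SNAI1_KO_2. Its log2 difference was 0.84 ± 0.18 with an adjusted p of 0.0219. The call for COL2A1 held only in the fit without SNAI1_KO_2 of the second table and was otherwise lost on leaving out a library (adjusted p of 0.0524 to 0.149), and that for COL11A1 was lost without WT of the first (0.0522) or second table (0.0903).

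Of the collagen VI chains, COL6A2 was called and COL6A1 was not. COL6A1 was 204 and 411 FPKM in WT and 186 to 408 in the knockout libraries, with a log2 difference of -0.09 (95% confidence interval -0.20 to 0.02) and an adjusted p of 0.176, although it was below WT in all 4 comparisons. COL6A2 was 90.0 and 111 FPKM in WT and between 68.0 and 96.9 in the knockout libraries (log2 difference -0.30 ± 0.058, adjusted p = 0.0161), a call that was lost on leaving out any library but SNAI1_KO_2 of the second table (adjusted p of 0.0512 to 0.123). COL6A3, the third chain of the classical heterotrimer, was between 0.498 and 0.868 FPKM in every library and was not tested. Neither chain of collagen I, the main fibril collagen of connective tissue, was called with all libraries in the fit. COL1A1 was 17.2 and 23.2 FPKM in WT and between 16.4 and 39.2 in the knockout libraries, with an adjusted p of 0.149. COL1A2 was 64.2 and 43.0 in WT and between 39.0 and 44.8 in the knockout libraries, with an adjusted p of 0.126. The confidence intervals of the log2 difference ran from -0.05 to 0.84 for COL1A1 and from -0.65 to 0.01 for COL1A2. When a library was left out, the difference ranged from 0.18 to 0.61 for COL1A1, which was called without SNAI1_KO_2 of the first table (0.59, adjusted p of 0.0156), and from -0.60 to -0.04 for COL1A2, which was called without WT of the second table (-0.60, adjusted p of 0.0205). COL12A1 was below the filter, at 0.155 and 0.0166 FPKM in WT and between 0.354 and 0.672 in the knockout libraries. COL3A1 did not exceed 0.292 FPKM in any library.

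The glycoproteins and proteoglycans had the lowest median log2 difference of the classes, -0.63 over 12 genes tested, of which 7 were called lower and 3 higher (all genes, 15.4% and 15.8%). The genes called lower were SPARC, FBLN1, FBN2, FBN1, VCAN, POSTN and LUM, and those called higher were the adhesion modulators TNC, THBS1 and THBS2. SPARC was 990 and 1303 FPKM in WT, 652 and 826 in SNAI1_KO_1, and 642 and 809 in SNAI1_KO_2. Its values in the knockout groups lay close together, about 0.653 and 0.627 of WT in the first and second table (log2 difference -0.64 ± 0.034, adjusted p = 0.000345). FBLN1, which encodes fibulin-1 of elastic and basement membrane matrix, was 230 and 238 FPKM in WT, 160.4 and 160.2 in SNAI1_KO_1, and 141 and 152 in SNAI1_KO_2. The difference was -0.61 ± 0.043 with an adjusted p of 0.000756.

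Both listed fibrillins, which form the cores of microfibrils, were lower. FBN2, the fibrillin of embryonic tissue, was 165 and 137 FPKM in WT, 97.3 and 74.4 in SNAI1_KO_1, and 102 and 72.8 in SNAI1_KO_2, a log2 difference of -0.80 ± 0.059 (adjusted p of 0.000848). FBN1 was much lower at 7.10 and 6.94 FPKM in WT, 2.94 and 2.00 in SNAI1_KO_1, and 3.82 and 2.71 in SNAI1_KO_2, with a difference of -1.07 ± 0.13 and an adjusted p of 0.00351. FBN2 exceeded FBN1 between 19.7-fold and 37.2-fold in every library. Elastin, which microfibrils scaffold, was low (ELN, 2.25 and 1.84 FPKM in WT, 0.696 to 1.63 in the knockout libraries) and was not called, with an adjusted p of 0.147.

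VCAN, which encodes versican, a large proteoglycan that binds hyaluronan, was 41.2 and 44.5 FPKM in WT, 20.6 and 22.7 in SNAI1_KO_1, and 23.5 and 23.4 in SNAI1_KO_2. These levels were close to 0.535 and 0.518 of WT (log2 difference -0.90 ± 0.063, adjusted p = 0.000746). POSTN (periostin, a matricellular protein of cushions and ligaments) was 8.39 and 7.30 FPKM in WT, 3.42 and 2.84 in SNAI1_KO_1, and 3.17 and 3.14 in SNAI1_KO_2. No knockout library approached WT, and the difference was -1.09 ± 0.11 with an adjusted p of 0.00187. The small leucine-rich proteoglycans, which coat collagen fibrils, were scarce. LUM was 3.85 and 1.47 FPKM in WT, 1.37 and 0.448 in SNAI1_KO_1, and 0.678 and 0.496 in SNAI1_KO_2, with a difference of -1.01 ± 0.21 and an adjusted p of 0.0190, a call lost without WT of the second table or without either SNAI1_KO_1 library (0.0547 to 0.06). BGN, below the filter, was 1.79 and 1.18 FPKM in WT and between 0.316 and 0.636 in the knockout libraries, while DCN was at most 0.0359.

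TNC encodes tenascin-C, which weakens adhesion to fibronectin. It was 38.5 and 44.1 FPKM in WT, 71.0 and 77.8 in SNAI1_KO_1, and 61.7 and 97 in SNAI1_KO_2 (log2 difference 0.86 ± 0.12, adjusted p = 0.00508). The ranges did not overlap. Among the fits that left out a library, the call was lost without WT of the second table (adjusted p of 0.0593), and it was also lost without the block (0.0715) and without the filter on low values (0.059). THBS2 was 0.167 and 0.309 FPKM in WT, 1.64 and 2.18 in SNAI1_KO_1, and 1.74 and 1.98 in SNAI1_KO_2. It was higher at a low level, by 1.22 ± 0.14 on the log2 scale with an adjusted p of 0.00328, and passed the filter only through the knockout libraries. With no filter its adjusted p was 0.0309. The related THBS1, an activator of latent TGF-beta, was 3.72 and 10.9 FPKM in WT, 11.6 and 14.0 in SNAI1_KO_1, and 10.7 and 17.7 in SNAI1_KO_2. Here the WT library of the second table overlapped the knockout libraries of the first, and the difference of 0.93 ± 0.22 (adjusted p of 0.0283) held only without WT or SNAI1_KO_1 of the second table among the fits that left out a library (otherwise 0.0586 to 0.132). FN1, which encodes fibronectin, was 123 and 146 FPKM in WT, 130 and 96.4 in SNAI1_KO_1, and 119 and 121 in SNAI1_KO_2. It was not called, with an adjusted p of 0.305 and a confidence interval of -0.55 to 0.14, but was called lower in the fit without SNAI1_KO_1 of the first table (-0.35, adjusted p of 0.0417).

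Hyaluronan genes changed in opposite directions. The link protein gene HAPLN1 and the main synthase gene HAS2 were lower, the synthase gene HAS3 was higher, and the receptor gene CD44 was not called, so that of 4 tested 2 were lower and 1 higher, numbers too small to set against the 15.4% and 15.8% of all genes. HAPLN1 was 86.6 and 56.5 FPKM in WT, 32.3 and 16.3 in SNAI1_KO_1, and 30.7 and 16.6 in SNAI1_KO_2. Its log2 difference of -1.57 ± 0.085 (adjusted p of 0.000369) was the lowest of the 36 genes on log2(FPKM + 1), though not with a pseudocount of 0.1 (-1.61, against -1.67 for LUM), and it fell to 0.364 and 0.291 of WT in the first and second table. HAPLN1 and VCAN, whose products bind each other and hyaluronan, are next to each other among the protein-coding genes of the RefSeq table for GRCh38.p14. The ratio of HAPLN1 to VCAN was 2.10 and 1.27 in WT but 1.57 and 1.31 in the knockout libraries of the first table and 0.720 and 0.708 in those of the second.

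HAS2 was 157 and 113 FPKM in WT, 109 and 85.4 in SNAI1_KO_1, and 114 and 73.4 in SNAI1_KO_2 (log2 difference -0.50 ± 0.068, adjusted p = 0.00521). It was lower within each table, although SNAI1_KO_2 of the first table, at 114 FPKM, was level with WT of the second, and the call was lost without WT of the first (adjusted p of 0.0568) or of the second table (0.0557). HAS3 was 0.446 and 1.42 FPKM in WT, 4.63 and 6.50 in SNAI1_KO_1, and 3.98 and 9.12 in SNAI1_KO_2. It passed the filter only through the knockout libraries. Its difference was 1.86 ± 0.16 (adjusted p of 0.00118, and 0.0296 with no filter), the highest of the 36 genes on log2(FPKM + 1). That rank depends on the scale, since the fold over WT was 9.65 and 5.49 for HAS3 and 10.1 and 6.74 for THBS2 in the first and second table, and with a pseudocount of 10 the differences were 0.55 for HAS3 and 0.84 for MMP15. HAS1 stayed at or under 0.171 FPKM. HAS3 made up 0.283% and 1.24% of the summed FPKM of the synthases in WT and 3.38% to 11.0% in the knockout libraries, so that HAS2 remained the main synthase transcript everywhere. CD44, the cell surface receptor for hyaluronan, was 9.92 and 8.59 FPKM in WT and 9.46 to 16.0 in the knockout libraries, with an adjusted p of 0.0890.

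**Figure D4:**
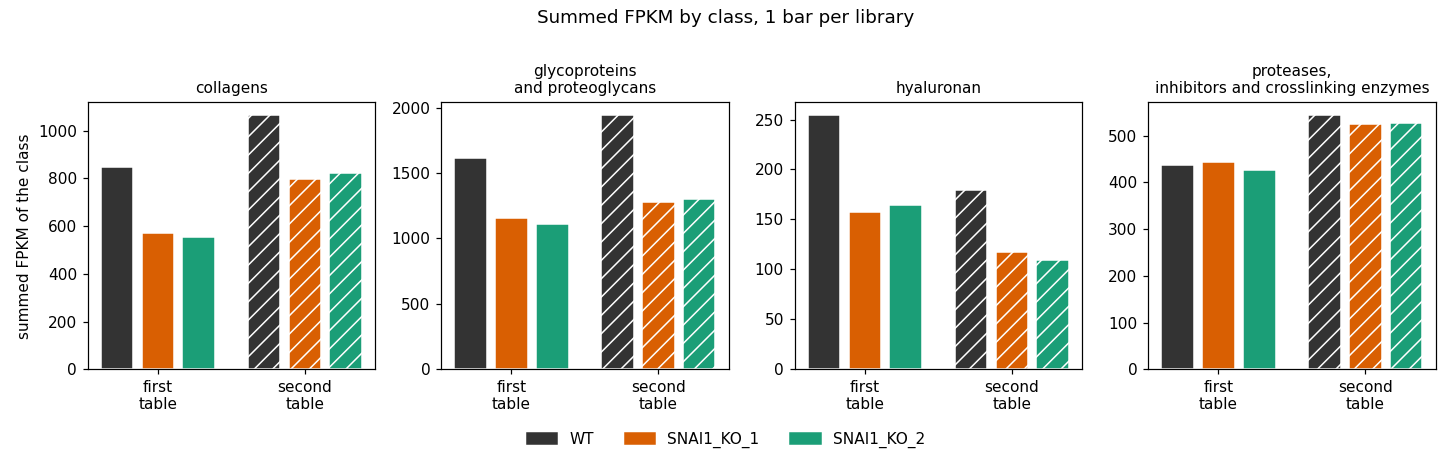
Summed FPKM of each class, 1 bar per library, solid for the first table and hatched for the second. The collagen, glycoprotein and hyaluronan sums are lower in every knockout library than in the WT library of their table, whereas the sum of proteases, inhibitors and crosslinking enzymes stays within 0.966 to 0.997 of WT on average.

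The summed FPKM of the collagens in the knockout libraries was on average 0.663 and 0.760 of WT in the first and second table, that of the glycoproteins 0.701 and 0.665, and that of the hyaluronan genes 0.632 and 0.632. Without their most abundant gene these became 0.584 and 0.628 for collagens without COL6A1, 0.777 and 0.742 for glycoproteins without SPARC, and 0.513 and 0.514 for hyaluronan genes without HAS2. Proteases, inhibitors and crosslinking enzymes summed to 0.997 and 0.966 of WT. These sums are descriptions and were not tested.

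In the class of proteases, inhibitors and crosslinking enzymes, all 11 genes were tested, and 5 were called lower and 3 higher (all genes, 15.4% and 15.8%) with a median of -0.15. The membrane-type metalloproteinases diverged. MMP15, whose promoter is shown above, was 27.1 and 59.3 FPKM in WT, 65.8 and 101 in SNAI1_KO_1, and 65.1 and 97.8 in SNAI1_KO_2. The knockout libraries lay above both WT libraries (log2 difference 0.99 ± 0.12, adjusted p = 0.00373). MMP14, which activates MMP2 at the cell surface, was 146 and 186 FPKM in WT and 123 to 142 in the knockout libraries, with a difference of -0.33 ± 0.058 and an adjusted p of 0.0120. MMP14 exceeded MMP15 5.39-fold and 3.14-fold in WT and between 1.38-fold and 1.90-fold in the knockout libraries. MMP2, the gelatinase that MMP14 activates, was 66.5 and 79.6 FPKM in WT and 44.7 to 60.4 in the knockout libraries, a difference of -0.49 ± 0.083 with an adjusted p of 0.0108. The other gelatinase, MMP9, was 3.58 and 5.61 in WT and 4.01 to 8.81 in the knockout libraries and was not called (adjusted p of 0.0760). The call for MMP14 was lost without WT of the second table (adjusted p of 0.0833) and that for MMP2 without WT of the first (0.0882) or second (0.0871).

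The TIMPs also diverged. TIMP2, which both inhibits metalloproteinases and helps MMP14 to activate MMP2, was 14.2 and 14.5 FPKM in WT and 18.7 to 22.7 in the knockout libraries. It was higher by 0.49 ± 0.082 with an adjusted p of 0.00996 (0.074 without WT of the second table). TIMP3, which is bound to the matrix, was 7.82 and 5.53 FPKM in WT, 4.24 and 3.71 in SNAI1_KO_1, and 4.84 and 3.62 in SNAI1_KO_2. It was lower (log2 difference -0.58 ± 0.11, adjusted p = 0.0145), a call that held only in the fit without SNAI1_KO_1 of the second table when a library was left out (otherwise 0.0528 to 0.12). TIMP2 exceeded TIMP3 1.81-fold and 2.61-fold in WT and between 3.87-fold and 6.27-fold in the knockout libraries. TIMP1, the most abundant of them, was 40.1 and 39.2 FPKM in WT and 41.0 to 46.8 in the knockout libraries, with an adjusted p of 0.180 and a confidence interval of -0.03 to 0.28.

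ADAMTS1, a secreted protease that cuts versican, was 16.8 FPKM in each WT library, 34.2 and 43.3 in SNAI1_KO_1, and 28.9 and 43.5 in SNAI1_KO_2. It was higher by 1.09 ± 0.12 with an adjusted p of 0.00296. The ADAMTS1 transcript was thus higher in the libraries in which the VCAN transcript was lower, and a link between them was not tested. Other ADAMTS genes named below went both ways, ADAMTS17 being higher and ADAMTS3, ADAMTS7, ADAMTS9 and ADAMTS12 lower. ADAM19, a membrane-bound sheddase, was 108 and 127 FPKM in WT and 89.7 to 100.1 in the knockout libraries, a difference of -0.29 ± 0.051 with an adjusted p of 0.0124, lost without WT (0.0982) or SNAI1_KO_2 (0.0509) of the second table. LOX, the lysyl oxidase that crosslinks collagen and elastin, was 1.85 and 2.15 FPKM in WT, 1.08 and 0.691 in SNAI1_KO_1, and 0.865 and 0.831 in SNAI1_KO_2. Its log2 difference was -0.69 ± 0.16 with an adjusted p of 0.0294, and when a library was left out the call held only in the fit without SNAI1_KO_1 of the first table (otherwise 0.0747 to 0.201). LOXL1 was not called, at 4.81 and 7.96 FPKM in WT and 3.42 to 8.34 in the knockout libraries, with an adjusted p of 0.403.

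The kit named in the labels does not mark strand, so reads of genes that overlap on opposite strands cannot be told apart. In GENCODE release 29, exons of 14 of the 42 genes overlap exons of a gene on the other strand. HAS2 overlaps HAS2-AS1, which was 59.5 and 63.1 FPKM in WT and 31.7 to 42.8 in the knockout libraries. HAS3 overlaps CHTF8, a replication factor gene that was 63.0 and 73.0 FPKM in WT and 57.1 to 66.4 in the knockout libraries. FBN2 overlaps SLC27A6, which was 5.90 and 5.50 FPKM in WT and 2.40 to 3.97 in the knockout libraries. ADAM19 overlaps CYFIP2, which was 6.01 and 8.36 FPKM in WT and 22.3 to 32.1 in the knockout libraries. LOX overlaps SRFBP1, which at 4.40 to 7.03 FPKM in any library exceeded LOX itself, and LOXL1 overlaps LOXL1-AS1, at 3.72 to 6.40. The levels of HAS2, HAS3, FBN2, ADAM19, LOX and LOXL1 carry this uncertainty, and its part in the differences was not tested.

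Other genes of matrix production and turnover were examined in 6 lists, whose counts stand against 15.8% of all genes called higher and 15.4% called lower, or 7.66% in either direction without the block. Of the collagen processing genes, 11 of 25 tested were called lower and 2 higher, with a median log2 difference of -0.28 compared with -0.05 over all genes tested. PCOLCE, an enhancer of procollagen cleavage, was 24.1 and 37.7 FPKM in WT and 6.75 to 18.6 in the knockout libraries, a difference of -1.21 with an adjusted p of 0.00337. P3H1, a prolyl hydroxylase of collagen, and ADAMTS3, which trims procollagen, were lower by log2 differences of -0.77 and -0.69. LOXL3, a lysyl oxidase, and COLGALT2, a collagen galactosyltransferase, were higher, by 1.42 for LOXL3, while COLGALT2 was 0.455 and 0.317 FPKM in WT and 1.41 to 2.06 in the knockout libraries. COLGALT2 passed the filter only through the knockout libraries. Without the block 0 of these 25 genes were called lower and 2 higher. Among 10 other interstitial collagens tested, COL9A3 and COL7A1 were higher by 0.81 and 0.48, and COL23A1 and COL27A1 lower with differences of -1.47 and -0.88. COL9A3, a further chain of collagen IX, thus differed from WT in the opposite direction to COL9A2, at 30.9 and 47.8 FPKM in WT and 53.6 to 90.9 in the knockout libraries.

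Of 39 other glycoproteins and proteoglycans tested, 14 were called higher and 12 lower, with a median of 0.03. The largest rises were CYR61 (3.10) and CTGF (2.53), secreted matricellular proteins, and SPP1 (2.14), osteopontin, while FMOD (-2.12), fibromodulin, MFAP4 (-1.85), a microfibril-associated protein, and SVEP1 (-1.73) had the lowest differences. MFAP4 was 396 and 339 FPKM in WT and 82.9 to 114 in the knockout libraries. FMOD and SVEP1, at most 0.867 and 0.457 FPKM in the knockout libraries, passed the filter only through WT. Of 13 genes of hyaluronan turnover and binding, 4 were called higher and 2 lower, with a median of 0.00. UGP2, which makes the UDP-glucose from which a hyaluronan precursor derives, was 66.8 and 48.3 FPKM in WT and 173 to 224 in the knockout libraries, a difference of 1.80 with an adjusted p of 0.000182. HABP4 and LAYN were higher by 0.95 and 0.81, and HAPLN4 and HMMR lower with differences of -0.60 and -0.26.

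Chondroitin sulfate chains decorate versican, and of 23 genes of their synthesis 5 were called lower and 1 higher, with a median of -0.12. PAPSS1, CHSY1 and CHST12 had log2 differences of -0.74, -0.64 and -0.44, and the sulfotransferase gene CHST7 was higher by 1.14. Of 39 other matrix proteases and inhibitors, 14 were called higher and 8 lower, with a median of 0.15. ADAMTS17 and TFPI2 were higher by 1.87 and 1.59, and ADAMTS9, ADAMTS7 and ADAMTS12 lower with differences of -1.08, -0.95 and -0.76. ADAMTS17, at 0.0992 and 0.146 FPKM in WT, passed the filter only through the knockout libraries, and ADAMTS12 only through WT. Without the block, 0 of the other collagens were called higher and 2 lower, 7 of the other glycoproteins higher and 6 lower, 2 genes of hyaluronan turnover higher and 0 lower, 1 gene of chondroitin sulfate synthesis higher and 0 lower, and 6 of the other proteases and inhibitors higher and 1 lower. The calls for COL9A3, COL7A1, LAYN, HAPLN4, HMMR, PAPSS1, CHSY1, CHST12, ADAMTS7 and ADAMTS12 were among those lost there.

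**Figure D5:**
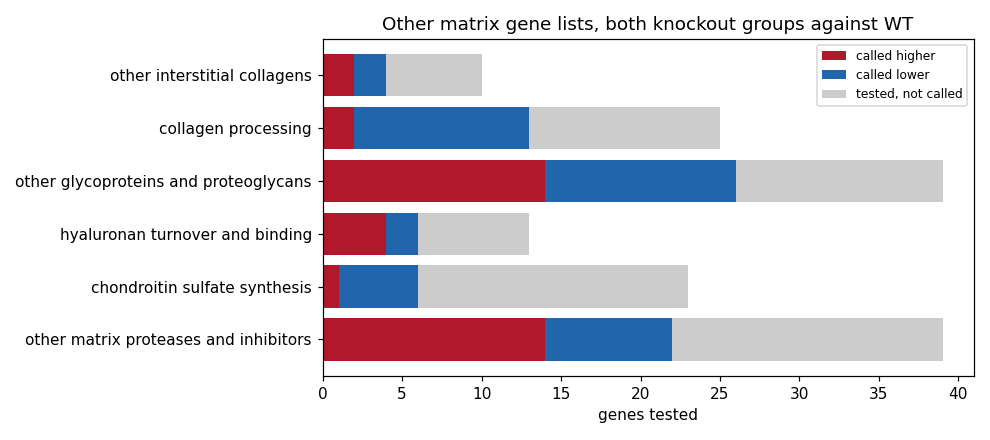
Number of genes tested in each of 6 further matrix lists, split into those called higher, called lower and not called for both knockout groups against WT. Collagen processing has 11 lower and 2 higher of 25, and the other matrix proteases and inhibitors 14 higher and 8 lower of 39.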

How the data were processed

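RNA-seq of 6 samples (3 groups of 2 libraries) was analysed from 2 tables of FPKM values that the authors deposited, with 38100 and 58324 gene rows and 1 library of every group each. The unit is named by a heading line in the second table. The submitters' processing notes name hg19, BWA, Bowtie and RSEM without roles or versions, and the annotation is not given in the sources used here. The columns name groups without replicate numbers, and 0 per-sample columns were left unused.

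Symbols found once in both tables (37803) with a mean of at least 1 FPKM (13909) were tested on log2(FPKM + 1) with limma (version 3.58.1, R version 4.3.3; lmFit, contrasts.fit, eBayes with trend; two-sided, Benjamini-Hochberg, threshold 0.05), with a mean per group and a term for the table, 2 residual and 3.34 prior degrees of freedom. Libraries of a table deviated together (correlation across genes of 0.616, 0.666 and 0.676 between the table differences of the groups, genes not being independent replicates), which is the pairing used. Intervals are 95% confidence intervals. Read totals cannot be had from FPKM, and therefore the absolute depth is unknown and no count test was run. The fit was also run on data simulated from its own estimates with normal noise, which checks the code and not the assumptions of the model. Promoter letters were searched in RefSeq windows. Values are given in every library for genes called with an absolute log2 difference of at least 0.5 and for FN1, and of each further list the 3 largest called rises and falls are named, of which 1 gene is not reported here. Other listed genes are given by their range and test. Alternatives were pseudocounts of 0.1 and 10, other filters, scalings and spread models, no block, and leaving out each library. The members and lists were chosen with earlier results of these data known.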

Additional observations from a re-analysis of the deposited data

How the results depend on the processing

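The number of matrix genes called stayed within 1.5 times the reported one, in each contrast against WT, under pseudocounts of 0.1 and 10, a mean of at least 5 FPKM, quantile or median-ratio scaling, a fit that used no trend, and a required log2 difference of at least 0.5. With no replicate block, 10 genes were called for both groups against WT, 4 for SNAI1_KO_1 and 6 for SNAI1_KO_2, where 27, 25 and 27 had been called. Over all 13909 genes, 1065 were called for both groups there, where 4348 had been called. Without the filter on low values these contrasts gave 14, 10 and 11 matrix genes. More genes were tested (30248), of which 2139 were called for both groups. Calls over all genes also became fewer in each fit that left out a library. For SNAI1_KO_1 or SNAI1_KO_2 alone, calls over all genes were not counted under these alternatives. Leaving out 1 library at a time gave 16 to 23 genes for both groups, 12 to 23 for SNAI1_KO_1 and 14 to 23 for SNAI1_KO_2, where a lone library was assumed to vary like the other groups. For both groups the number moved by over 1.5 times when WT of the second table was left out (16). For SNAI1_KO_1 it did so without WT of the first table (16), WT of the second (15) and either of its own libraries (12 and 13), and for SNAI1_KO_2 without WT of the second table (15) and either of its own (14 and 14). When WT of the first table was left out, LUM fell below the filter. Restricted, after seeing the data, to genes with a mean of at least 1 FPKM in WT and in the knockout libraries, 23 matrix genes were called. Of 13031 such genes over all, 15.7% were called lower and 14.1% higher. Between the knockout groups 0 genes were called under every alternative run, with at most 2 at an unadjusted p under 0.05 by limma. FN1 and LOXL1, neither of them called with all libraries, ranged over the fits without 1 library from -0.43 to 0.018 and from -0.32 to 0.014 on the log2 scale, and turned positive without WT of the second and of the first table, respectively. In such fits FN1 (-0.35) was called without SNAI1_KO_1 of the first table, COL1A1 (0.59) without SNAI1_KO_2 of the first and COL1A2 (-0.60) without WT of the second. Over both tables the ratio of summed FPKM to WT went from 0.632 to 0.653 for hyaluronan genes and from 0.981 to 1.01 for proteases, inhibitors and crosslinking enzymes under median-ratio scaling. Leaving out the most abundant gene of a class moved it to 0.606 for collagens, 0.759 for glycoproteins, 0.513 for hyaluronan genes and 1.08 for proteases. The cause of these changes was not tested, except that fewer libraries or more genes entered some fits. Absolute depth, which would limit low values, is unknown.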
